A study of Homo sapiens with 9 samples.

Results

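LN229 cells, an established human glioblastoma line, were exposed to formate. The transcripts of 9 enzymes grouped as suppliers of NADPH, pentoses or the precursor NADP were followed during the exposure. They were the genes listed for this purpose by symbol, PGD, TKT, TALDO1, IDH1, IDH2, ME1, ME2, ME3 and NADK, 9 of the 23727 genes of the count table. The cells grew in a medium made up with 17 mM glucose, 2 mM glutamine and 10% serum, and RNA with an integrity number above 9 was made into stranded mRNA libraries. There were 3 groups of 3 libraries: untreated cells taken at 0 h, cells given 500 µM sodium formate for 8 h, and cells given the same dose for 24 h. Every untreated library was taken at 0 h, so the effect of formate and the effect of time in culture cannot be told apart. The labels number the replicates 1 to 3 and do not say that they were separate cultures, so the p-values measure the spread between these libraries, which may be technical.

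NADPH is the electron donor of lipid synthesis, of deoxyribonucleotide synthesis and of glutathione and thioredoxin reduction. In the cytosol it is made by the oxidative branch of the pentose phosphate pathway, by isocitrate dehydrogenase 1 (IDH1), by malic enzyme 1 (ME1) and by folate enzymes that oxidise one-carbon units, the metabolism to which formate belongs. IDH2, ME2 and ME3 are mitochondrial isozymes, so the 9 enzymes are not all cytosolic, and ME2 mainly uses NAD. The non-oxidative branch (TKT and TALDO1) exchanges carbon between pentoses and glycolysis without making NADPH.

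Total counts ran from 22222298 to 25848242 per library. The principal components of the 500 most variable genes put untreated replicate 1 (score -23.5 on the first component) and 8 h replicate 1 (-21.6) apart from the other untreated and 8 h libraries (-3.41 to -0.798), and the 24 h libraries lay between 9.56 and 25.03. For IDH1, PGD, TALDO1 and IDH2, the 24 h change is therefore also given without replicate 1 of the untreated or of every group. The ratios IDH1/IDH2 and TKT/TALDO1 are also given without untreated replicate 1. The correlations and the list medians are given with all libraries only. Among glial and glioma markers, VIM, NES, CD44, SOX2, S100B and OLIG2 were detected in every library and GFAP reached no more than 0.425 CPM (TMM-scaled counts relative to the library size). Of the markers of other cell types reported here, the immune marker PTPRC, the endothelial marker PECAM1 and the epithelial marker EPCAM stayed at or below 0.133 CPM, while the neuronal SYT1 (28.4 to 40.5 CPM) and the epithelial KRT8 (13.5 to 23.0 CPM) were detected, and their part in the results was not tested.

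The promoters of 4 of the enzymes are shown because their transcripts were higher in each 24 h library than in each untreated one. All 9 genes matched RefSeq promoters (GRCh38.p14), with 14 start sites between them. Each printed stretch lies upstream of the start site, begins 250 bases before it and leaves out annotated untranslated sequence. Capitals mark matches, on either strand, to the antioxidant response core TGACNNNGC, the letters to which NRF2 binds, and to the CCAAT box CCAAT. IDH1 is shown at chr2:208255134-208255321 on the minus strand, PGD at chr1:10398814-10399063 on the plus strand, ME1 at chr6:83431072-83431301 on the minus strand and TKT at chr3:53256032-53256272 on the minus strand.
IDH1: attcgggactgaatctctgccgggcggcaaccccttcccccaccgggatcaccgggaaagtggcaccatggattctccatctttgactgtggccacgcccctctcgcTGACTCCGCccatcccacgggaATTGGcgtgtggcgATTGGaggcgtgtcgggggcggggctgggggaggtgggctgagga
PGD: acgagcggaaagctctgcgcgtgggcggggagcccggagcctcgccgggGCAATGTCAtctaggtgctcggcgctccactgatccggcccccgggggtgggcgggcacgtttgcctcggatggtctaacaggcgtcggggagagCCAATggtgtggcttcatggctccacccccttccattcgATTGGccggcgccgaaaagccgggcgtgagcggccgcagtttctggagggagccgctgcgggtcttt
ME1: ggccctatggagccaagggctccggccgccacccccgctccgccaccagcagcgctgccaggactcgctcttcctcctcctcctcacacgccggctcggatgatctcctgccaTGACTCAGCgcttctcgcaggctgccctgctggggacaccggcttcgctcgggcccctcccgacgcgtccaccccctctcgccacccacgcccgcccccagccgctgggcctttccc
TKT: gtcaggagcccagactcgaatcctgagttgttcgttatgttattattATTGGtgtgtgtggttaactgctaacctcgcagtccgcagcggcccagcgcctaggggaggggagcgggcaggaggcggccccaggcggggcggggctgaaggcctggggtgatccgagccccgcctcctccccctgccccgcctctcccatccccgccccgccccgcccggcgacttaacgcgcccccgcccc

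The antioxidant core was found upstream of IDH1 (TGACTCCGC, first base at -143 from the start site), PGD (GCAATGTCA, on the opposite strand, at -201) and ME1 (TGACTCAGC, at -137), and upstream of none of the other 6 genes. IDH1 has another start site in RefSeq, at chr2:208254458, and the window upstream of that one held no match. By windows, the core was in 3 of the members' 14 and in 10.9% of the 35116 RefSeq windows of the same 250 bases. The sterol response element TCACNCCAC was in none of the members' upstream windows and in 0.883% of all windows. An E-box, CACGTG, was present upstream of at least 1 start site of NADK and ME3, in 3 of the 14 windows and in 6.35% of all windows. CCAAT was present upstream of at least 1 start site of each member except IDH2 and ME1, in 8 of the 14 windows and in 32.0% of all windows. None of the matches in the printed stretches overlapped another, and a match of letters is a description of the window only.

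Levels can be compared between genes only per length. In untreated cells, as CPM per kilobase of exons (mean ± SD, n = 3), TKT stood at 67.2 ± 4.003, TALDO1 at 51.9 ± 10.8 and PGD at 42.0 ± 0.808. These 3 pentose phosphate enzymes were above 92.7% or more of the 15158 genes with an exon length. The isocitrate dehydrogenases followed with 20.0 ± 4.25 for IDH2 and 15.9 ± 1.15 for IDH1, then ME1 at 7.76 ± 0.389, NADK at 7.54 ± 0.611 and ME2 at 4.94 ± 0.388. ME3 was lowest at 0.0177 ± 0.0157. The ranges of the untreated libraries overlapped between TKT and TALDO1, between IDH2 and IDH1 and between ME1 and NADK, and between no other neighbours in this order. Inside each library TKT was above TALDO1 and IDH2 above IDH1 in 3 of 3, and ME1 was above NADK in 2 of 3. The order also depended on the length used. Per kilobase of the median coding transcript, PGD (162 ± 3.12) came before TALDO1 (121 ± 25.2), IDH1 (46.3 ± 3.36) before IDH2 (38.7 ± 8.22), and ME2 (32.4 ± 2.55) before NADK (13.6 ± 1.10) and ME1 (7.76 ± 0.389), with TKT first and ME3 last on both scales.

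**Figure D1:**
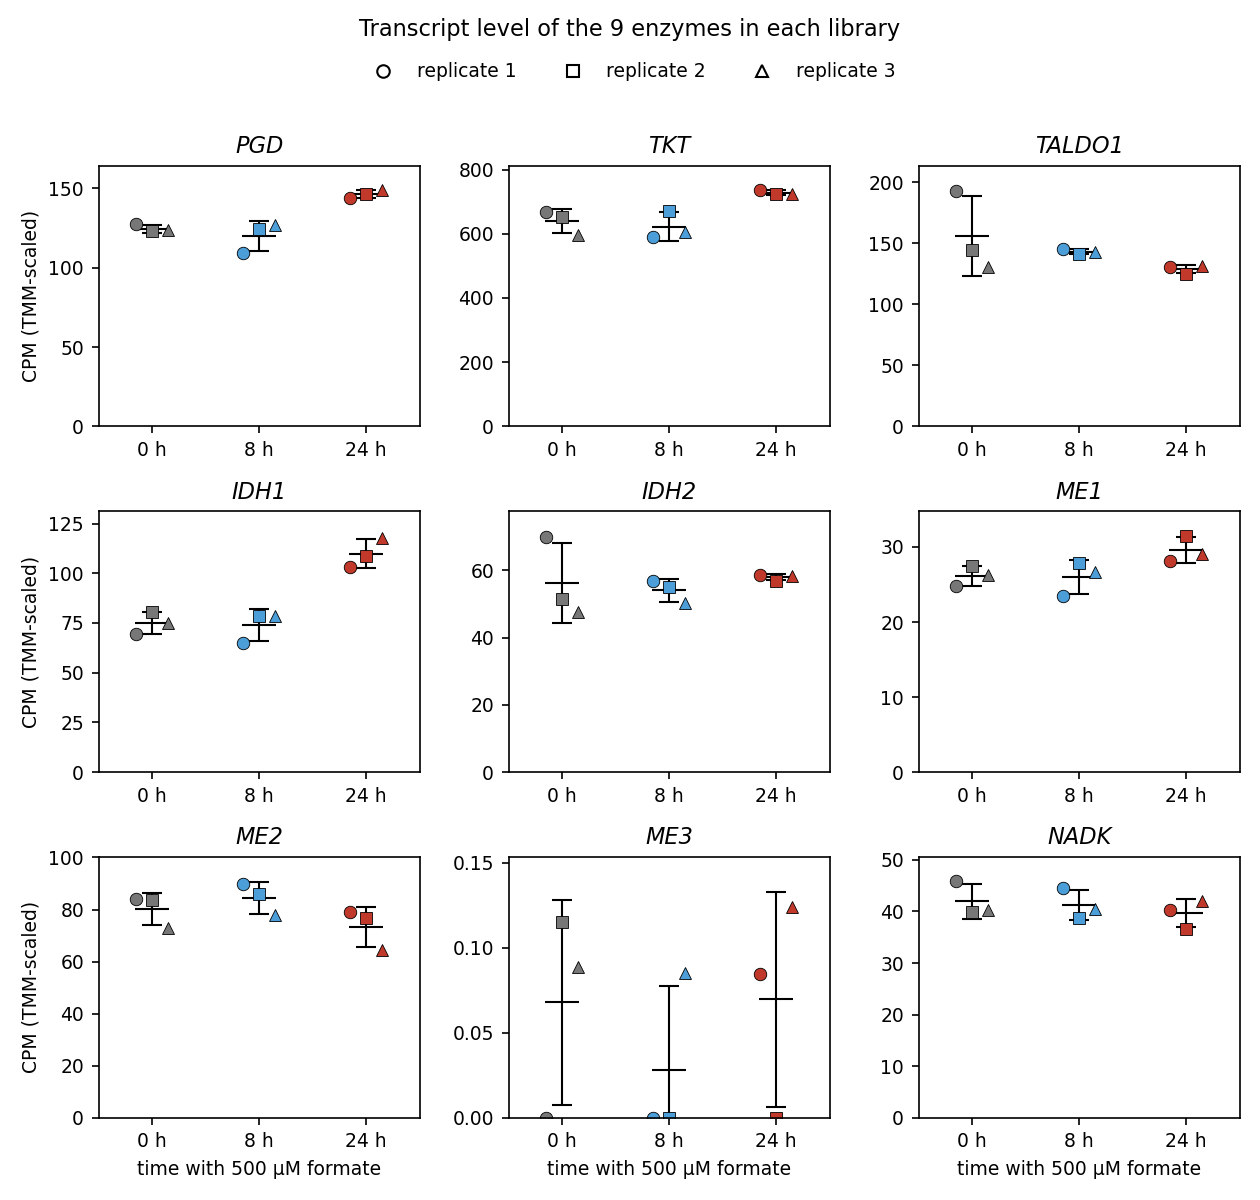
Transcript level of the 9 enzymes (y axis, CPM scaled with TMM, from 0, a separate scale for each gene) in each library by time with formate (x axis); shapes give the replicate number, the horizontal line the mean of 3 libraries and the bars the SD. The 24 h libraries of IDH1, PGD, TKT and ME1 all lie above the untreated ones, untreated replicate 1 of TALDO1 (192 CPM) and IDH2 (69.9 CPM) lies above the others, and ME3 does not exceed 0.124 CPM.

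After 24 h, IDH1 was the single enzyme called higher (adjusted p under 0.05). PGD, TKT and ME1 were also higher in every 24 h library than in every untreated one, and no test compared their changes with that of IDH1. IDH1 (ENSG00000138413, chr2:208236227-208266074, minus strand) oxidises isocitrate to 2-oxoglutarate in the cytosol and peroxisomes and makes NADPH. Its levels were 69.5, 80.4 and 75.0 CPM in untreated replicates 1, 2 and 3, 64.7, 78.3 and 78.6 CPM at 8 h, and 103, 108 and 118 CPM at 24 h. All the 24 h libraries lay above all the others, and the untreated and 8 h libraries overlapped. The fitted change from 0 h to 24 h was 0.55 on the log2 scale (SE 0.11, 95% interval 0.32 to 0.78), a 1.46-fold rise, with an adjusted p of 0.0267 (edgeR quasi-likelihood test, Benjamini-Hochberg over all tested genes). Libraries of the same number differed by 0.57, 0.43 and 0.65 for replicates 1, 2 and 3. With the replicate number as a block the change was 0.55 (interval 0.38 to 0.73, adjusted p 0.000896, edgeR). The fit with this block called 24.1% of tested genes. In bulk RNA, a change in the cells that hold a transcript and a change in the RNA per cell cannot be told apart.

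Among the 8 enzymes that passed the filter on low counts, IDH1 was the single one called at 24 h against 0 h, beside 4.25% of all 15273 tested genes (2.47% higher and 1.77% lower). A rise at least as large as that of IDH1 was fitted for 9.60% of tested genes. Over 26 other settings the change of IDH1 lay between 0.48 and 0.61, with adjusted p-values from 0.000148 to 0.143, and 22 of them passed the threshold of 0.05. Without untreated replicate 1 the change was 0.48 (adjusted p 0.0436, edgeR). Without replicate 1 of every group it was 0.54 (adjusted p 0.00138, edgeR), in a fit that called 2616 of 15470 genes. The call was lost without untreated replicate 3 (adjusted p 0.0505), 24 h replicate 2 (0.123) or 24 h replicate 3 (0.143), while the change stayed at 0.55, 0.55 and 0.49. An antisense transcript, IDH1-AS1, covers 1.99% of the exons of IDH1 and had 5 to 23 counts per library, against 1425 to 2840 for IDH1.

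PGD (ENSG00000142657, chr1:10398592-10420144, plus strand), 6-phosphogluconate dehydrogenase, makes NADPH in the oxidative branch and releases ribulose 5-phosphate. Its levels were 127, 123 and 123 CPM in the untreated replicates, 109, 124 and 127 CPM at 8 h and 144, 147 and 149 CPM at 24 h. The 24 h libraries were again above all the others. The fitted change at 24 h against 0 h was 0.23 (SE 0.09, interval 0.04 to 0.43), and it did not pass the threshold (adjusted p 0.136, edgeR). With the replicate block it was also 0.23 and not called (interval 0.06 to 0.41, adjusted p 0.0549, edgeR). Without replicate 1 of every group it passed, with a change of 0.26 (adjusted p 0.0232, edgeR). That fit called 2616 of 15470 genes. Over the 26 settings the adjusted p of PGD ran from 0.0106 to 0.327, and 2 settings passed.

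TKT (ENSG00000163931, chr3:53224707-53256052, minus strand), transketolase, moves pieces of sugar phosphates between the pentose pool and glycolysis. It was measured at 669, 653 and 596 CPM untreated, at 590, 672 and 605 CPM at 8 h, and at 737, 723 and 723 CPM at 24 h. All the 24 h libraries were higher than the rest, with a fitted change of 0.19 (SE 0.10, interval -0.04 to 0.41, adjusted p 0.264, edgeR). With the replicate block the interval was 0.007 to 0.37, and TKT was not called (adjusted p 0.117, edgeR). TALDO1 (ENSG00000177156, chr11:747329-765024, plus strand), transaldolase, acts next to transketolase in the same branch. Its levels were 192, 144 and 131 CPM untreated, 146, 141 and 143 CPM at 8 h and 131, 125 and 131 CPM at 24 h. Untreated replicate 1 was the highest library and untreated replicate 3 lay within the range of 24 h. The fitted change of TALDO1 was -0.27 (SE 0.13, interval -0.56 to 0.01, adjusted p 0.2001, edgeR), and without untreated replicate 1 it was -0.11. With the replicate block it was -0.26 and not called (interval -0.50 to -0.03, adjusted p 0.0958, edgeR).

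The mitochondrial isocitrate dehydrogenase IDH2 (ENSG00000182054, chr15:90083045-90102504, minus strand) was measured at 69.9, 51.4 and 47.5 CPM untreated, at 56.9, 55.0 and 50.3 CPM at 8 h and at 58.4, 56.9 and 58.4 CPM at 24 h. Its untreated libraries spanned the values of both other groups. The fitted change at 24 h was 0.04 (SE 0.13, interval -0.25 to 0.33, adjusted p 0.861, edgeR), and it was 0.21 without untreated replicate 1 and -0.07 without untreated replicate 3. The interval does not hold a change as large as the 0.55 of IDH1, but the difference between these 2 genes was tested only as a ratio.

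ME1 (ENSG00000065833, chr6:83210389-83431071, minus strand), the cytosolic malic enzyme, turns malate into pyruvate and makes NADPH. Its levels were 24.8, 27.4 and 26.2 CPM untreated, 23.4, 27.9 and 26.7 CPM at 8 h and 28.1, 31.5 and 29.1 CPM at 24 h. Each 24 h library was above each of the other 6, by little in the case of 24 h replicate 1, and the fitted change was 0.18 (SE 0.10, interval -0.05 to 0.40, adjusted p 0.287, edgeR). ME2 (ENSG00000082212, chr18:50878734-50954257, plus strand), a mitochondrial malic enzyme that mainly uses NAD, was at 84.1, 83.5 and 72.9 CPM untreated, 89.7, 86.1 and 77.7 CPM at 8 h and 78.9, 76.7 and 64.4 CPM at 24 h. Replicate 3 was the lowest in each group, and the groups overlapped. The change of ME2 at 24 h was -0.13 (SE 0.11, interval -0.37 to 0.11, adjusted p 0.455, edgeR), and same-numbered libraries differed by -0.09, -0.12 and -0.18.

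The third malic enzyme, ME3 (ENSG00000151376, chr11:86441108-86672636, minus strand), is mitochondrial and uses NADP. It had 12 counts over the 9 libraries, 0, 3 and 2 in the untreated replicates, 0, 0 and 2 at 8 h and 2, 0 and 3 at 24 h. No library exceeded 3 counts, a floor that corresponds to 0.116 to 0.141 CPM, so ME3 was not tested and a change in it was not detectable at this depth.

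NADK (ENSG00000008130, chr1:1751232-1780457, minus strand), the cytosolic NAD kinase, phosphorylates NAD to NADP. Its levels were 45.9, 39.8 and 40.3 CPM untreated, 44.5, 38.8 and 40.5 CPM at 8 h and 40.3, 36.7 and 42.0 CPM at 24 h. The 3 groups overlapped, and the change at 24 h against 0 h was -0.08 (SE 0.10, interval -0.31 to 0.14, adjusted p 0.621, edgeR).

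The 8 tested enzymes had a median log2 change of 0.11 at 24 h against 0 h, beside 0.01 over all tested genes. The 24 h and untreated libraries did not overlap for 4 of the 8 (PGD, TKT, IDH1 and ME1), all higher, a pattern that 15.9% of tested genes showed. None of the 8 was lower without overlap, beside 14.4% of tested genes. With the replicate block IDH1 was again the single one called, beside 24.1% of tested genes. The intervals of IDH2, ME1, ME2 and NADK held 0 with the block too.

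At 8 h no enzyme was called. The adjusted p was 0.9999 for each of the 8 (edgeR), none had an unadjusted p under 0.05, and DESeq2 called none. Of all tested genes 0% were called, and 79 genes (0.517%) had an unadjusted p under 0.05. The fitted changes ran from -0.12 for TALDO1 to 0.08 for ME2, with a median of -0.03 beside -0.02 over all tested genes. IDH1 changed by -0.02 with an interval of -0.25 to 0.21, and PGD by -0.05 with an interval of -0.25 to 0.14. No enzyme had 8 h libraries free of overlap with the untreated ones, beside 3.31% of tested genes.

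The comparison of 24 h with 8 h tests whether the effects at the 2 times differ, since both are measured against the same untreated libraries. IDH1 was 0.57 higher at 24 h than at 8 h (SE 0.11, interval 0.34 to 0.80, adjusted p 0.0228, edgeR), and it was the single enzyme called of 8, beside 4.56% of tested genes. PGD was 0.28 higher (interval 0.09 to 0.48) and missed the threshold (adjusted p 0.0875, edgeR). TKT, ME1 and IDH2 differed by 0.23, 0.19 and 0.10, and ME2, TALDO1 and NADK by -0.20, -0.15 and -0.06, none of them called. The libraries were free of overlap for PGD, TKT, IDH1 and ME1, all higher at 24 h (18.2% of tested genes), and for TALDO1, lower at 24 h (16.2%). The call of IDH1 was lost without 8 h replicate 1 (adjusted p 0.120), 8 h replicate 3 (0.0645), 24 h replicate 2 (0.109) or 24 h replicate 3 (0.136), with changes from 0.47 to 0.61. In an F test over all 3 groups together, IDH1 was again the one member called (adjusted p 0.0263, edgeR), beside 3.64% of tested genes.

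**Figure D2:**
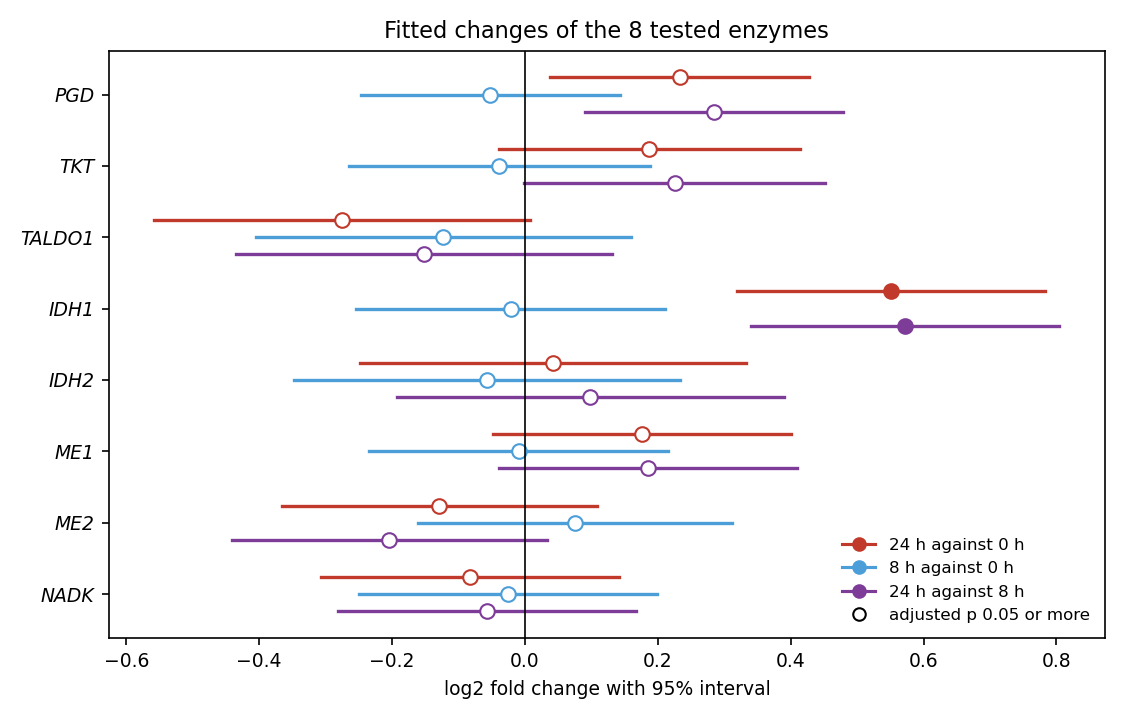
Fitted log2 fold changes (x axis) of the 8 tested enzymes (y axis) in the 3 comparisons, with 95% intervals; filled points have an adjusted p under 0.05. IDH1 alone is filled, at 0.55 for 24 h against 0 h and 0.57 for 24 h against 8 h, and all the intervals of 8 h against 0 h include 0.

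**Figure D3:**
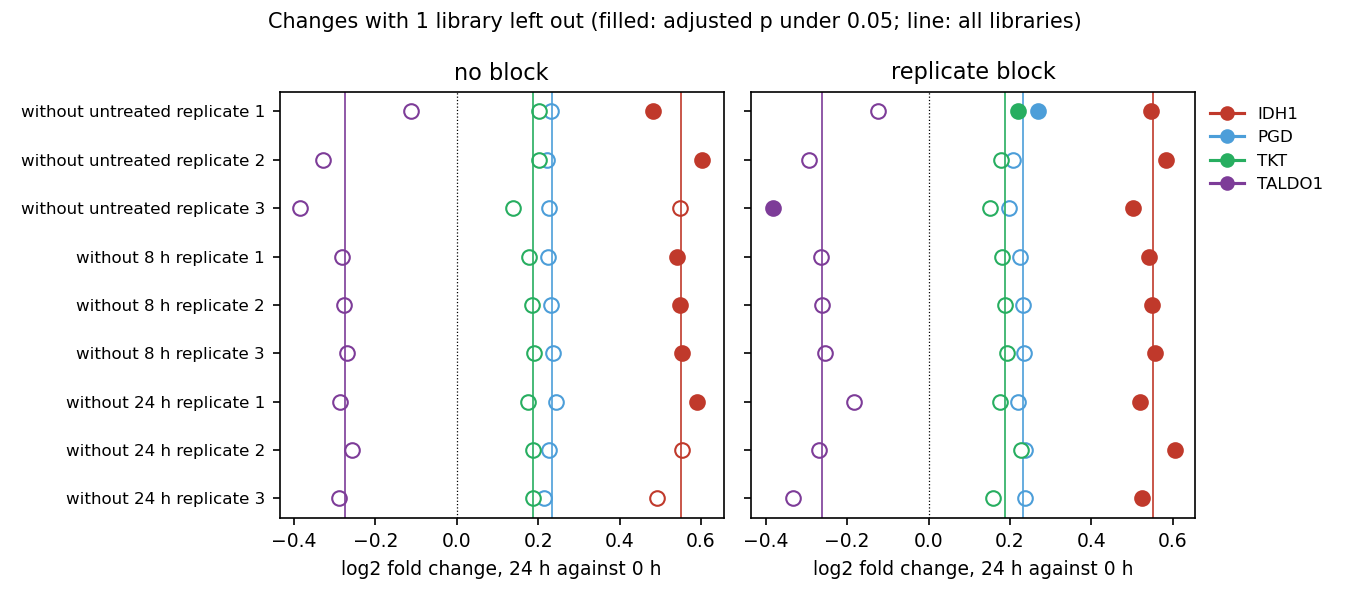
Log2 fold changes at 24 h against 0 h (x axis) of IDH1, PGD, TKT and TALDO1 with each library left out in turn (y axis), without (left) and with (right) the replicate number as a block; vertical lines give the value with all libraries and filled points an adjusted p under 0.05. IDH1 stays between 0.48 and 0.61 and is filled in 6 of 9 fits on the left and in 9 of 9 on the right, and TALDO1 moves to -0.11 without untreated replicate 1.

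Ratios of 2 enzymes inside a library do not depend on the library size, and 6 were computed for 24 h against 0 h with an exact two-sided permutation test, for which 3 libraries against 3 cannot give a p under 0.1. The log2 ratio of IDH1 to IDH2 counts, cytosolic over mitochondrial, was -0.01, 0.64 and 0.66 in the untreated replicates and 0.82, 0.93 and 1.01 at 24 h. The difference of 0.49 had the smallest possible p of 0.1 (exact permutation, 0.3 adjusted over the 6 ratios), and it was 0.27 without untreated replicate 1. TKT over TALDO1 was 1.80, 2.18 and 2.19 untreated and 2.497, 2.53 and 2.46 at 24 h. This difference of 0.44 also had p = 0.1 (exact permutation, 0.3 adjusted), and was 0.32 without untreated replicate 1. In both ratios the 24 h libraries lay above all untreated ones. Between libraries of the same replicate number, a comparison added after the data were seen, the IDH1 to IDH2 ratio was higher at 24 h by 0.83, 0.29 and 0.35 and the TKT to TALDO1 ratio by 0.70, 0.36 and 0.28.

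ME1 over ME2 was -1.76, -1.61 and -1.47 untreated and -1.49, -1.28 and -1.15 at 24 h, a difference of 0.31 with overlapping groups (exact permutation p = 0.2, 0.4 adjusted). Between libraries of the same number it was higher at 24 h by 0.27, 0.32 and 0.33, in 3 of 3, with a smaller spread than the groups themselves (SD 0.03 of the differences, 0.14 untreated and 0.17 at 24 h). The exact two-sided sign-flip test on 3 such differences cannot give a p under 0.25, and it gave 0.25 for this ratio and for the 2 above (0.5 adjusted over the 6 ratios). PGD over TKT, the oxidative against the non-oxidative branch, differed by 0.04 (exact permutation p = 0.4, 0.6 adjusted). NADK over its mitochondrial counterpart NADK2 differed by -0.15 (exact permutation p = 0.6, 0.7 adjusted). The ratio of ME1 to ME3 differed by 0.21 (exact permutation p = 0.7, 0.7 adjusted) and rests on ME3 counts of 3 or fewer.

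**Figure D4:**
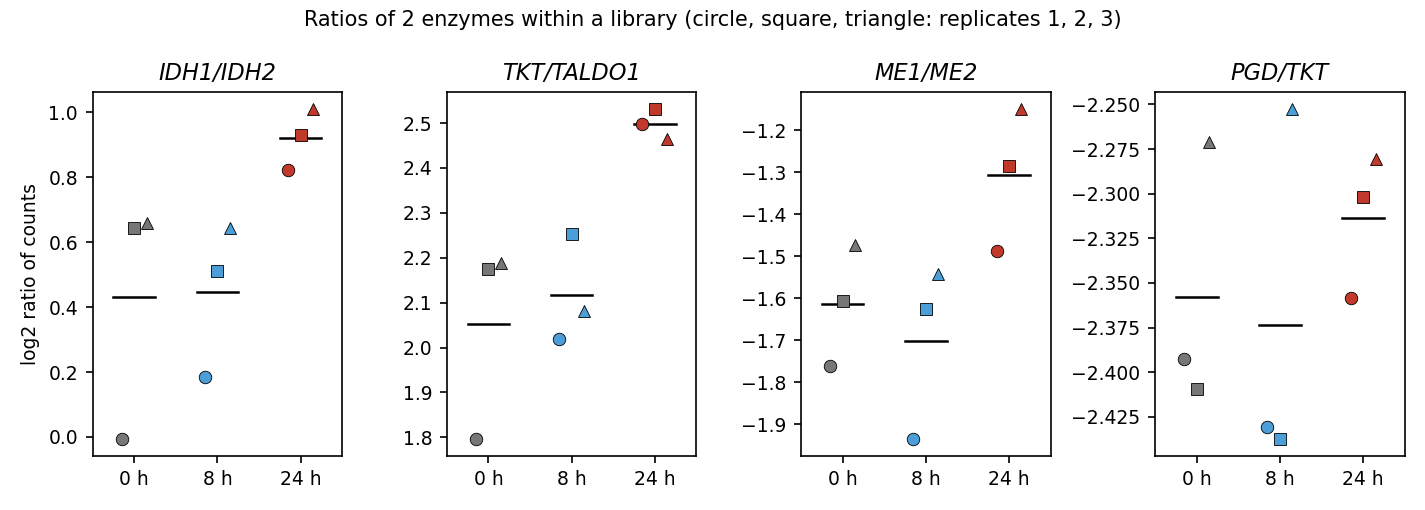
Log2 ratio of the counts of 2 enzymes in the same library (y axis, which does not start at 0) by time with formate (x axis); shapes give the replicate number and the horizontal lines the means of 3 libraries. The 24 h libraries lie above all untreated ones for IDH1/IDH2 (0.82 to 1.01) and TKT/TALDO1 (2.46 to 2.53), and the groups overlap for ME1/ME2 and PGD/TKT.

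The levels of the enzymes were set against each other over the 9 libraries, which share the 3 groups and replicate 1's distance from the others, so the correlations of log2 CPM are descriptions. PGD and IDH1 had a Pearson r of 0.94, IDH1 and ME1 of 0.87 and PGD and TKT of 0.87, while IDH1 and IDH2 had 0.06, TKT and TALDO1 -0.22 and ME1 and NADK -0.82. Among 10839 genes with a symbol and at least 5 CPM on average, the nearest to IDH1 were PDCD4 (r = 0.99) and FDFT1 (r = 0.99), squalene synthase, which changed by 0.97 (adjusted p 0.0167, edgeR) and 0.71 (adjusted p 0.0202, edgeR) at 24 h against 0 h. The nearest to PGD were PLSCR1 and GSTM4 (both r = 0.98), to TKT CTDSP1 and HSDL2 (both r = 0.97) and to TALDO1 RBX1 and EDF1 (both r = 0.99). For IDH2 they were ADCK2 and NFKBIE (both r = 0.96), for ME1 CREBL2 (r = 0.98), for ME2 RAD23B (r = 0.96) and TXNIP (r = 0.95), and for NADK MAP3K11 (r = 0.98) and SLC25A22 (r = 0.96).

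The enzymes around the 9 were read from the same test. At 24 h against 0 h it called 2.47% of tested genes higher and 1.77% lower. Of the other enzymes of the pentose phosphate pathway and of ribose phosphate use, 12 of 13 were tested, 0 rose and 1 fell at 24 h against 0 h, with a median change of -0.08. The one that fell was PRPSAP1 (-0.51, adjusted p 0.0498, edgeR), a protein associated with phosphoribosyl pyrophosphate synthetase, from 130 ± 26.7 to 91.1 ± 0.960 CPM. With each library left out, this list held 0 to 1 called genes without the replicate block and 2 to 3 with it. Without the block it held 0 when untreated replicate 2 was left out. Of 10 genes of NAD and NADP synthesis and transhydrogenation, none was called. Their median was 0.32, and the smallest p belonged to QPRT, quinolinate phosphoribosyltransferase, at 0.648 ± 0.173 CPM untreated and 1.58 ± 0.379 CPM at 24 h (change 1.26, adjusted p 0.0768, edgeR). Of 17 genes that cycle citrate, isocitrate and malate, none was called. Their median was -0.15, and the smallest p was that of ACO1, cytosolic aconitase, which forms the substrate of IDH1 (0.33, adjusted p 0.0537, edgeR).

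Of 13 NADPH-using enzymes of lipid synthesis, 4 rose and none fell, beside 2.47% and 1.77% of tested genes. Their median was 0.45. DHCR7 (0.89, adjusted p 0.0149, edgeR), the last step of cholesterol synthesis, went from 67.9 ± 7.60 to 126 ± 5.40 CPM. Squalene epoxidase SQLE changed by 0.76 and fatty acid synthase FASN by 0.87 (both with an adjusted p of 0.0167, edgeR), and FDFT1 was the fourth. The genes of the SREBP factors, which drive transcription of these enzymes, both rose, SREBF1 by 0.997 (adjusted p 0.0311, edgeR; 6.92% of its exons overlapped on the other strand) and SREBF2 by 1.08 (adjusted p 0.0167, edgeR).

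Of the 5 tested NADPH-linked folate enzymes none was called at 24 h against 0 h, with a median of 0.35. Of 15 NADPH-using thiol, quinone and carbonyl reductases none was called, and their median was -0.09. NQO1, a quinone reductase and NRF2 target, had the smallest p, with 627 ± 173 CPM untreated and 1171 ± 129 CPM at 24 h (0.90, adjusted p 0.0658, edgeR; 17.7% of its exons overlapped on the other strand). Of 6 NRF2 regulators 1 fell, beside 1.77% of tested genes. It was the small Maf protein gene MAFK (-0.75, adjusted p 0.0215, edgeR, with 18.1% of its exons overlapped on the other strand). Of 10 tested NRF2 targets outside NADPH supply none was called. Their median was 0.17, and the smallest p was that of GCLM, the modifier subunit of glutamate-cysteine ligase (-0.45, adjusted p 0.0523, edgeR).

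These list counts depended on the fit. With the replicate number as a block, beside 24.1% of all genes called, 2 pentose and ribose phosphate enzymes, 4 of NAD and NADP synthesis, 6 of citrate and malate cycling, 2 folate enzymes, 3 reductases and 4 NRF2 targets were called. Without 24 h replicate 2, or without 24 h replicate 3, every list without the block stood at 0 called, as did the whole table. At 8 h none of the lists held a called gene.

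**Figure D5:**
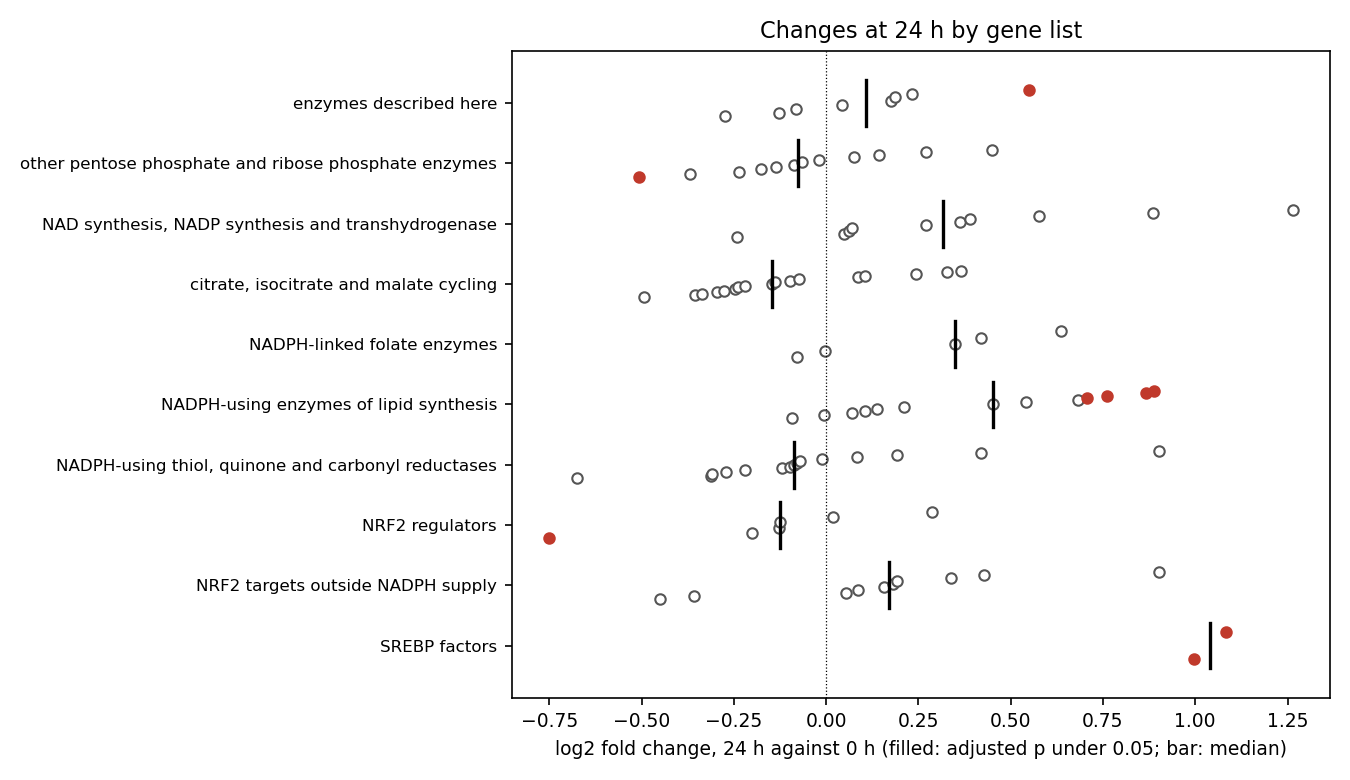
Log2 fold change at 24 h against 0 h (x axis) of each tested gene of the 9 enzymes and of the lists around them (y axis); filled points have an adjusted p under 0.05 and the vertical bars give the medians. The filled points are IDH1, PRPSAP1, MAFK, 4 enzymes of lipid synthesis and both SREBP genes, and the median of the 9 enzymes' tested members is 0.11.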

How the data were processed

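RNA sequencing gave 9 LN229 libraries; per the submitters' processing notes bcl2fastq 2.20.0.422, STAR 2.7.4a and the build GRCh38 were used. The authors deposited a table of raw counts for 23727 Ensembl genes; the counting program, annotation release and strand setting are not given in the sources used here. Symbols named 19733 genes, and coordinates and lengths came from GENCODE 29 on GRCh38. The genes and lists were chosen with earlier results of these data known.

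The filter filterByExpr left 15273 genes. Counts were scaled with TMM and fitted with edgeR 4.0.16 (R 4.3.3), 1 mean per group over 9 libraries. Tests were two-sided quasi-likelihood tests with Benjamini-Hochberg adjustment over all tested genes and a threshold of 0.05; DESeq2 1.42.0 was an alternative. The code was tested on simulated data. CPM are TMM-scaled, log2 CPM used a prior count of 2 and log2 ratios 0.5. Deviations from the group means correlated between untreated and 24 h libraries of the same number (r = 0.367, 0.164 and 0.251), so the numbers in the titles were taken to pair them, as for untreated and 8 h (0.476, 0.432 and 0.414). The different-number pair of untreated replicate 3 and 24 h replicate 2 had r = 0.270, above 2 of the 3 same-number values. Between 8 h and 24 h r was 0.423, 0.0367 and 0.404, so replicate 2 by itself showed little sign of pairing there. The replicate block nevertheless uses the number in all 3 groups, so its fits pair 8 h with 24 h too. The main fit uses no pairing. Log2 ratios were also compared between libraries of the same number with an exact sign-flip test.

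All 9 enzymes were named. From each other list, up to 3 called genes or the one with the smallest p were named, and for each enzyme the 2 genes with the highest correlation; some genes that met these rules, and 1 marker, are not reported here.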

Additional observations from a re-analysis of the deposited data

Results flagged for a closer look

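IDH1 was singled out because its effects at the 2 times differed by a test of the difference itself: the change at 24 h minus the change at 8 h was 0.57 on the log2 scale (edgeR quasi-likelihood test, adjusted p 0.0228). All 3 libraries of 24 h lay above all 3 of 8 h, a pattern that 18.2% of tested genes showed, PGD, TKT and ME1 among them. Over 26 other settings the adjusted p ran from 1.59e-05 to 0.136, and 22 passed the threshold of 0.05.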

How the results depend on the processing

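IDH1 kept its direction in all 26 settings for 24 h against 0 h and in all 26 for 24 h against 8 h. At 24 h against 0 h the 1 enzyme called became 0 with only the 2 groups compared in the fit (IDH1 adjusted p 0.0506, edgeR). Without replicate 1 of every group it became 2 (IDH1 and PGD), where 2616 of 15470 genes were called. The count stayed at 1 with the replicate block. With each library left out, with or without the block, it ranged from 0 to 3. The 3 came from the block without untreated replicate 1, where 3816 of 15598 genes were called. For 24 h against 8 h, the 1 called became 2 (IDH1 and PGD) by DESeq2 (1447 genes called). So it did with the replicate block (3130 of 15273 genes called) and without replicate 1 of every group (3072 of 15470). With each library left out the count ranged from 0 to 5. The 5 came from the block without untreated replicate 1, where 5432 of 15598 genes were called. For any difference among the groups, the 1 called became 2 with the replicate block (2986 genes called). It was also 2 without replicate 1 of every group (2476 of 15470 genes called). With each library left out it ranged from 0 to 4. The 4 came from the block without untreated replicate 1, where 4636 of 15598 genes were called. The cause was not tested. Whole-table calls at 24 h against 0 h numbered 649, against 124 with only the 2 groups compared, 1594 by DESeq2, 3687 with the replicate block and 0 without 24 h replicate 2 or 24 h replicate 3 (2550 and 2563 genes at an unadjusted p under 0.05). Added after the data were seen, list counts by DESeq2 at 24 h against 0 h were 2 for NAD and NADP synthesis and 3 for citrate and malate cycling. They were 2 each for folate enzymes, reductases and NRF2 targets, and all these counts were 0 in the main edgeR fit, without the block. Without replicate 1 of every group they were, in that order, 2, 5, 2, 3 and 4, with 2 pentose and ribose phosphate enzymes. That fit called 2616 of 15470 genes in the whole table. Between 8 h and 24 h, same-number libraries had r = 0.423, 0.0367 and 0.404, so not every value was over 0.1. The replicate block still treats these numbers as pairs in its fits of 24 h against 8 h and of any difference among the groups. With the replicate block as same-number differences, added after the data were seen, no log2 ratio had an adjusted p under 0.5 (exact sign-flip test). On 3 differences this test cannot give a p under 0.25, so no ratio could have passed 0.05. At 8 h against 0 h the changes lay near 0 and turned sign in some settings, except for ME2 (0.025 to 0.14 in 26 settings). Without replicate 1 of every group they were 0.027 for PGD, 0.032 for TKT, 0.045 for TALDO1, 0.014 for IDH1, 0.090 for IDH2 and 0.023 for ME1. With each library left out, with or without the replicate block, PGD ran from -0.083 to 0.020, TKT from -0.097 to 0.025, TALDO1 from -0.22 to 0.054, IDH1 from -0.076 to 0.073, IDH2 from -0.15 to 0.12, ME1 from -0.062 to 0.068 and NADK from -0.074 to 0.040. At 24 h against 0 h, IDH2 ran from -0.065 to 0.21 and the log2 ratio of ME1 to ME3 from -0.68 to 0.96. That ratio could not be computed with a prior count of 0, since ME3 had 0 counts in 4 libraries. Genes at or under 3 counts per library, ME3 among them, are beyond what this depth can compare.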
